A study of Rattus norvegicus with 30 samples.

Results

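The genes that encode the proteasome, its activators, its inhibitor and its assembly chaperones were followed through serum starvation of rat embryonic fibroblasts. Members were all genes of the expression table whose symbol is Psma to Psmg followed by a number, a rule that uses names only and no measured value. It found 47 of the 17353 genes listed. Of these, 44 had a mean of at least 1 FPKM over the 30 libraries and were tested among 8940 genes, and Psma8, Psmb8 and Psmb11 stayed under that level. By definition FPKM count fragments relative to transcript length and to mapped fragments, so levels of different genes can be compared per length. How these libraries were scaled to each other is not given in the sources used here.

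The cells were the REF line, described by the submitters as rat embryonic fibroblasts with no transformation. Control cells were never deprived of serum, and the 9 other groups had gone without it for 2, 3, 4, 6, 8, 10, 12, 14 or 16 days. A group had 3 libraries, which the series calls biological replicates, made from total RNA of cell pellets. The study's title places these cells between proliferation and senescence and asks how deep quiescence is regulated by the lysosome, the other large system of protein breakdown in the cell. Genotype, strain and passage were not given in the sources used here, and all libraries come from a single cell line.

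The proteasome is the barrel-shaped protease that degrades proteins tagged with ubiquitin. Its 20S core is built from rings of alpha subunits (Psma genes), which gate the entrance, and of beta subunits (Psmb genes), of which Psmb5, Psmb6 and Psmb7 carry the catalytic sites. The 19S regulatory particle caps the core and holds a ring of ATPases (Psmc genes) that unfold substrates, and non-ATPase subunits (Psmd genes) that bind and remove ubiquitin. In cells exposed to interferon, Psmb8, Psmb9 and Psmb10 replace the constitutive catalytic subunits to form the immunoproteasome, whose peptides feed antigen presentation, and the Psme genes encode caps that act in place of the 19S particle. Fibroblasts depend on this machinery in every phase of growth, including the destruction of cell cycle regulators.

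Depth of sequencing is unknown, because the table holds FPKM and no counts. The FPKM of a library summed to between 582501 and 785072, and 9875 to 10580 genes were above 0. The 10 libraries numbered replicate 1 stood apart from the other 20 on the leading principal component of the deviations from group means, at -17.8 to -5.79 against 0.765 to 13.0. Genes seen in few libraries also started at lower values there (a median of 0.0567 to 0.0795 FPKM against 0.111 to 0.166). Of the fibroblast markers, Vim, Col1a1, S100a4, Fn1, P4hb and Pdgfrb were all expressed, while Thy1 was listed at 0 in 26 libraries, Pdgfra averaged 0.647 FPKM and Col1a2 was listed at 0 in all 30. Of 6 haematopoietic markers in the table, none reached a mean of 1 FPKM, and Adgre1 and Cd3e were at 0 in every library, although their sum went from at least 6.90 FPKM in control libraries to at most 1.93 in starved ones. Muscle markers, 2 of 4 of which (Des and Myod1) passed the level for testing, moved with the groups. They summed to 312 to 335 FPKM in the control libraries, 11.9 to 14.8 at day 2 and 25.6 to 31.1 at day 16, whereas epithelial markers, of which Krt8 alone of 5 passed that level, went from 10.7 to 12.9 FPKM in control to 62.2 to 75.8 at day 16. Neural markers, 2 of 4 of which passed that level, summed to 2.29 to 3.63 FPKM in control, 3.02 to 3.99 at day 2 and 16.2 to 20.4 at day 16. The part of these markers in the results against control was not tested.

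Proteasome genes fell together when serum was withdrawn. At day 2, 34 of the 44 tested members were lower than in unstarved cells and 4 were higher (limma, adjusted p under 0.05 over 8940 genes), while 30.7% of all tested genes were lower and 30% higher. The median member changed by -0.58 on the log2(FPKM + 1) scale, against 0.00 for all genes tested. At day 8, 38 members were lower and 0 higher (all genes, 34.5% lower and 33.4% higher), with a median of -0.59. At day 16, 31 were lower and 2 higher (all genes, 35% lower and 32.4% higher), with a median of -0.42. These comparisons share the 3 control libraries and are given side by side. The 4 higher at day 2 were Psmb9, Psme1, Psme4 and Psmf1, of which 2 were left without control replicate 1 or control replicate 3, and 1 without day 2 replicate 3. The 2 higher at day 16 were Psmb9 and Psme1, and with the replicate number as a block, which the libraries of these days support, 4 were higher. With that block, which the main counts do not use, Psma2, Psmb1, Psmb2 and Psmd7 also passed as lower at day 16. Summed over the 47 members, proteasome genes took 0.947% to 0.998% of a control library's FPKM and 0.599% to 0.714% of that of each of the 27 starved libraries, so the groups did not overlap. In bulk RNA, fewer cells expressing a gene and less of its RNA per cell cannot be told apart.

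**Figure D1:**
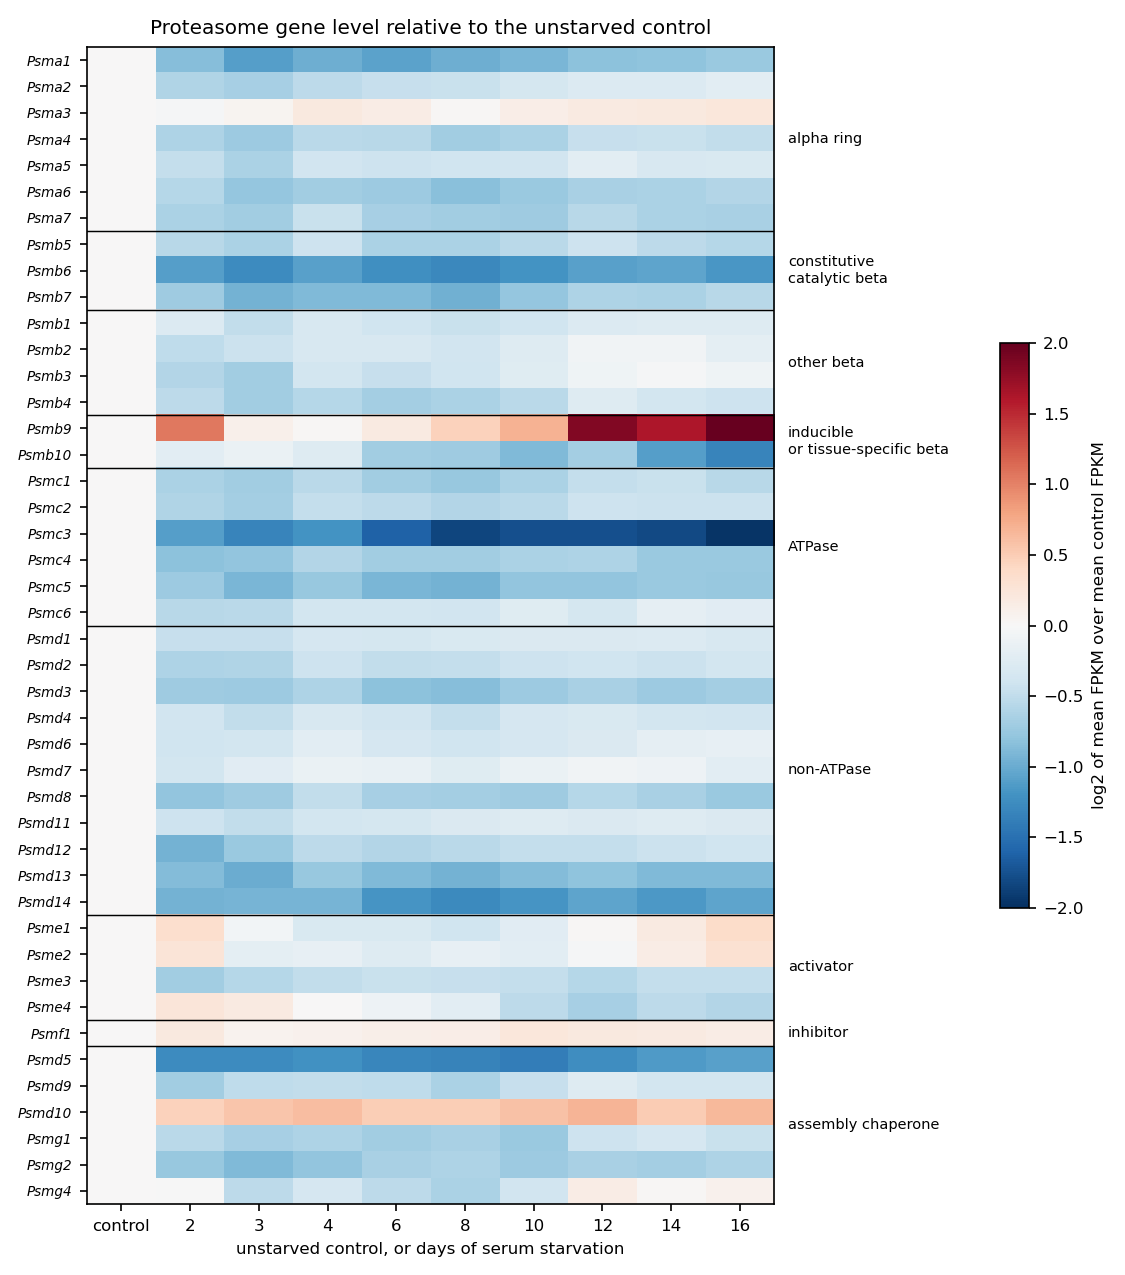
Level of each of the 44 tested members in each group, as log2 of the group's mean FPKM over the control mean (colour, blue lower and red higher), with groups in columns and genes in rows by role. Rows of the core and of the 19S particle are blue from day 2 on, except that of Psma3 (98.4% of control at day 2 and 117% at day 16), with a median core subunit at 65.5% of control at day 2 and 72.6% at day 16, while Psmb9 turns red to 406% of control.

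The structural subunits moved by similar amounts at day 2 and lay further apart later. Psma3 was left out here because the table also lists a separate entry, Psma3l (described with the alpha ring). Whether the 2 entries share reads was not tested. Of the other 30 subunits of the 20S core and the 19S particle that were tested, 29 fell by day 2, 30 were lower at day 8 and 24 at day 16. Their changes at day 2 had a median of -0.61 with an SD over the 30 genes of 0.21, while the SD over all genes tested was 0.91. At days 8 and 16 the SD over the 30 was 0.35 and 0.38, against 1.10 and 1.08 over all genes. The changes at day 16 ranged from -1.95 to -0.10. Every one of the 30 had its highest mean in the control group, whereas the entry Psma3, left out, had its highest at day 16. The median subunit stood at 65.5% of its control FPKM at day 2, 61.7% at day 3, 70.2% at day 4, 65.5% at day 6, 64.4% at day 8, 68.8% at day 10, 73.9% at day 12, 73.8% at day 14 and 72.6% at day 16. The lowest group was day 3 for 13 of them, day 2 for 8 and day 8 for 7. Most of the loss was thus in place by the earliest time measured.

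Of the alpha ring genes, which form the outer gate of the core, 6 of 7 tested were lower at day 2 and at day 8, and 5 at day 16. Psma1 moved most of these 6. Its control libraries read 202, 205 and 210.5 FPKM, the day 2 libraries 118, 110.1 and 114 FPKM, and the day 16 libraries 112, 138 and 117 FPKM. All starved libraries of these days lay under all controls, and the change was -0.85 ± 0.10 (SE, adjusted p = 3.48e-08) at day 2 and -0.75 ± 0.10 (SE, adjusted p = 1.98e-07) at day 16. Psma7, the most abundant alpha gene in the control group at 394 ± 23.0 FPKM (SD, n = 3), fell to 254 ± 8.48 FPKM by day 2. Psma2 returned furthest, from 65.8% of control at day 2 to 86.0% at day 16, where it no longer passed against control (-0.22, adjusted p = 0.0916), except with the replicate number as a block (0.0270) and with libraries scaled to equal sums (0.00157).

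Psma3 was the exception in the ring, and its value may depend on how reads were assigned to 2 entries, which was not tested. The table has a separate entry, Psma3l, which RefSeq lists as a synonym of Psma3 and which the name rule does not include. The entry Psma3 read 24.2, 24.6 and 30.05 FPKM in control cells, 25.0, 25.9 and 26.7 at day 2 and 28.2, 26.4 and 37.6 at day 16, and the groups overlapped (-0.02, adjusted p = 0.929 at day 2). Psma3l read 204, 178 and 193 FPKM in control cells, 93.8, 82.5 and 79.8 at day 2 and 74.7, 81.0 and 65.4 at day 16, and was lower in every starved library of those days. Added together, the 2 entries gave 218 ± 13.5 FPKM in control (SD, n = 3), 111 ± 6.58 at day 2 and 104 ± 2.59 at day 16. The summed gene changed by -0.96 at day 2 (limma, adjusted p = 7.84e-10). Psma3's share of the sum went from 12.1% in control to 29.5% at day 16. If both entries are 1 gene, as the synonym has it, the flat profile of the entry is not that of the gene. RefSeq names 52 other pseudogenes or like copies of members, belonging to 19 of the 47, 10 of them to Psmb3. None of these 52 names matched a row of the table, and whether reads were shared with them was not tested.

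**Figure D2:**
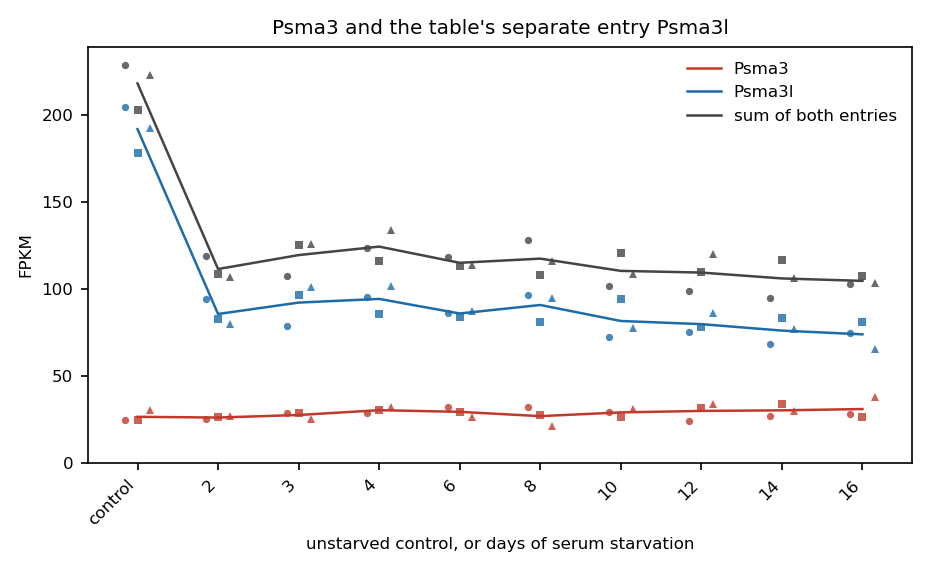
FPKM of the entries Psma3 and Psma3l and of their sum in each library (points; circles, squares and triangles for replicates 1, 2 and 3) and their group means (lines). Psma3l and the sum drop from control to day 2, the sum from 218 to 111 FPKM, while the entry Psma3 stays between 21.1 and 37.6 FPKM.

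All 3 constitutive catalytic subunits were lower at days 2, 8 and 16. Psmb6, the caspase-like subunit, had the largest drop of the core. It read 306, 298 and 290.4 FPKM in control cells, 154, 140.0 and 122 at day 2, 108, 147 and 112 at day 8 and 109.6, 143 and 148 at day 16. No starved library of these days exceeded a control, and the change was -1.11 ± 0.16 (SE, adjusted p = 1.69e-06) at day 2 and -1.16 ± 0.16 (SE, adjusted p = 5.63e-07) at day 16. Psmb7, the trypsin-like subunit, went from 365, 340.2 and 415 FPKM to 214, 228 and 239 at day 2, 189, 202 and 182 at day 8 and 221, 272 and 266 at day 16. It fell by 0.96 against control at day 8 (adjusted p = 4.13e-07) and was higher at day 16 than at day 8 by 0.40 (adjusted p = 0.0213). That later gain did not pass without day 8 replicate 1 (adjusted p = 0.0552), day 8 replicate 3 (0.0775), day 16 replicate 2 (0.0929) or day 16 replicate 3 (0.0732). Psmb5, the chymotrypsin-like subunit and the target of proteasome inhibitors used in medicine, read 334, 289.8 and 306 FPKM in control and 229, 227 and 178 at day 2, a change of -0.56 ± 0.11 (SE, adjusted p = 1.09e-04). Its level stayed near that, at 209 ± 9.89 FPKM at day 16 (SD, n = 3).

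Transcription of proteasome genes is known to be raised by Nfe2l1 through antioxidant response elements when proteasomes are inhibited, so the promoters were searched for the core of that motif, TGACNNNGC, on both strands from 250 bases before to 50 after the start in RefSeq (build GRCr8). It occurred in 8 of the 42 members with a promoter in that table (19.05%), in 12.1% of all 33469 promoters and in 15.1% of the 6972 promoters of tested genes. The 8 were Psma3, Psmb2, Psmb5, Psmb6, Psmd1, Psmd3, Psmd9 and Psme4. Of these, Psme4 was higher at day 2 and the entry Psma3 did not pass, while the others were lower. The catalytic gene Psmb7 fell without holding the core. The CCAAT box (letters CCAAT) occurred in 47.6% of members' promoters, 37.5% of all and 38.7% of those of tested genes. TATAAA occurred in 9.52% of members' promoters, fewer than the 14.2% of all and more than the 6.05% of tested genes. The 250 bases before the start of Psmb5 (chr15:32047380-32047629, minus strand) and of Psmb6 (chr10:55737638-55737887, plus strand), shown as the constitutive catalytic genes that hold the core, read as follows, with the core in capitals.
Psmb5: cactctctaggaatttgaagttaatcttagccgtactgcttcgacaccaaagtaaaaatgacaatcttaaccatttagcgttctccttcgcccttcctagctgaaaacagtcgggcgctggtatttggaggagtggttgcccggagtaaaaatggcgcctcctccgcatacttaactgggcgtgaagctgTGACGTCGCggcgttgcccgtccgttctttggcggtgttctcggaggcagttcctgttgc
Psmb6: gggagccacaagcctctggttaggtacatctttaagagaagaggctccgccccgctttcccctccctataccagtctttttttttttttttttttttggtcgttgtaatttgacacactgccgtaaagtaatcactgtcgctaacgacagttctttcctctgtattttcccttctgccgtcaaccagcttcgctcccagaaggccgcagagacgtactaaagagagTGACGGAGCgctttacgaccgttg
A match describes the letters only and says nothing of binding.

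The 4 other beta genes are structural. Psmb4, the most abundant of the 30 subunits, read 497, 432 and 484 FPKM in control, 351, 316 and 318 at day 2 and 340.3, 365 and 356 at day 16, with a change of -0.52 ± 0.09 (SE, adjusted p = 2.98e-05) at day 2. Psmb3 returned nearly to its control level, from 232, 224 and 252 FPKM in control to 149, 163 and 162 at day 2 and 188, 253 and 225 at day 16. Its day 2 libraries lay under all controls, whereas the day 16 libraries overlapped with them, and day 16 did not pass (-0.10, adjusted p = 0.515). Psmb2 behaved alike, at 70.2% of control at day 2 and 87.5% at day 16, where it did not pass (-0.19, adjusted p = 0.0529) but did with the block (0.0391) and with equal sums (0.0101). Psmb1, the least affected of the 4 at day 2, read 359 ± 29.6 FPKM in control and 297 ± 14.6 at day 2 (SD, n = 3 each). It did not pass at day 2 (-0.27, adjusted p = 0.0528), but did so with the replicate number as a block (adjusted p = 0.0115), with libraries scaled to equal sums (0.00141) and with both groups fitted alone (0.0231), and it was lower at day 8 (-0.44, adjusted p = 0.00214). At day 16 (-0.26, adjusted p = 0.0608) it passed with the block (0.0145) and with equal sums (1.73e-04).

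All 6 ATPases of the 19S ring were lower than control at days 2, 8 and 16, and Psmc3 left the others. Psmc3, also known as Rpt5, was the most abundant ATPase in control cells at 362, 350.4 and 372 FPKM. It read 166, 176 and 161 FPKM at day 2, 154, 155 and 167 at day 4, 99.3, 108 and 97.0 at day 8 and 83.4, 101 and 94.0 at day 16. The day 2, day 8 and day 16 libraries formed separate ranges below the controls, except that days 8 and 16 overlapped. The change against control was -1.10 ± 0.10 (SE, adjusted p = 3.17e-10) at day 2, -1.82 ± 0.10 (SE, adjusted p = 8.29e-15) at day 8 and -1.95 ± 0.10 (SE, adjusted p = 1.97e-15) at day 16, when 25.7% of the control level was left. From day 2 to day 8 Psmc3 fell by 0.72 (adjusted p = 1.38e-06), and the difference between days 8 and 16 did not pass (-0.13, adjusted p = 0.331). The day 16 call of Psmc6 did not pass with upper quartiles equalised (adjusted p = 0.139), with quantile normalization (0.217) or without day 16 replicate 1 (0.0940). That of Psmc1 did not pass without day 16 replicate 1 (adjusted p = 0.0805).

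Psmc3 was also set against the geometric mean of the other 5 ATPases in the same library, all taken as FPKM + 1. On that measure it stood at 244% to 251% in control cells, 179% to 186% at day 2, 106% to 116% at day 8 and 92.2% to 94.4% at day 16. The groups did not overlap in any of these steps. On the log2 scale the ratio differed from control by -0.44 ± 0.02 at day 2 (SE), -1.15 ± 0.04 at day 8 and -1.41 ± 0.02 at day 16, and by -0.72 ± 0.04 between days 2 and 8. Each had p = 0.1 in a two-sided exact permutation test, the smallest that 3 against 3 libraries allow, and 0.125 after adjustment over the 15 ratio tests made. This ratio was chosen after the levels had been seen. The remaining ATPases stood at 59.2% to 85.6% of control at day 16. Psmc6 kept the largest share of its control level at each of the 9 days and was the least abundant in control, with 78.5 ± 2.75 FPKM in control and 53.2 ± 1.04 at day 2.

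**Figure D3:**
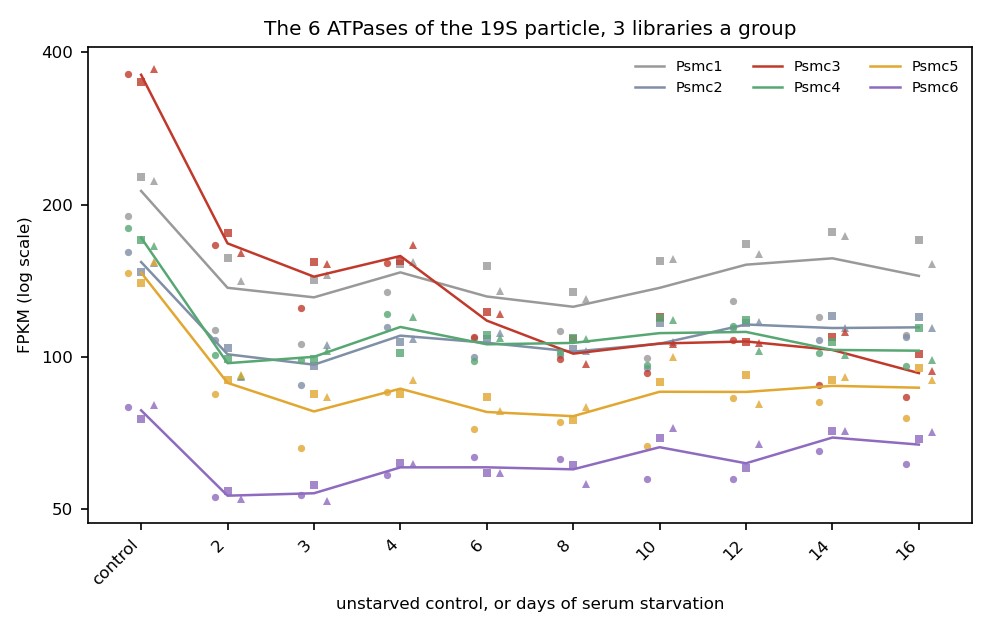
FPKM of the 6 ATPase genes in each library (points, by replicate as circle, square and triangle) with group means (lines), on a log axis. Psmc3 is the highest of the 6 in control cells at 361 FPKM and is among the middle ones from day 8 on, at 93.0 FPKM by day 16, while Psmc1 stays the highest and Psmc6 the lowest of the other 5.

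The 11 non-ATPase subunits were all lower at days 2 and 8, and 9 at day 16. Psmd14, the deubiquitinase of the lid that removes ubiquitin chains from substrates, read 97.7, 101 and 115 FPKM in control, 49.1, 56.6 and 58.1 at day 2, 40.9, 43.0 and 46.2 at day 8 and 43.6, 55.7 and 52.0 at day 16. All starved libraries of these days lay under the controls, with a change of -0.93 ± 0.12 (SE, adjusted p = 2.14e-07) at day 2 and -1.25 ± 0.12 (SE, adjusted p = 8.20e-10) at day 8. The further difference from day 2 to day 8 was -0.32 (adjusted p = 0.0339). It did not pass without day 2 replicate 2 (adjusted p = 0.0989), day 2 replicate 3 (0.116), day 8 replicate 1 (0.114) or day 8 replicate 2 (0.0758), nor with libraries scaled to equal sums (0.0591). Psmd12, a lid scaffold subunit, took the opposite course after an equal drop. It went from 105, 109 and 120.1 FPKM to 49.5, 65.9 and 58.8 at day 2 and 73.3, 79.1 and 77.5 at day 8, a change of -0.94 ± 0.10 (SE, adjusted p = 1.99e-08) and then a rise of 0.40 ± 0.10 (SE, adjusted p = 0.00316). Psmd7, a lid subunit that pairs with Psmd14, changed least. It read 136, 102 and 121 FPKM in control and 104, 83.0 and 92.3 at day 2, groups that overlapped, with a change of -0.36 (adjusted p = 0.00183). At day 8 it passed narrowly (-0.23, adjusted p = 0.0311), and 4 single libraries each ended that call when left out, namely control replicates 1 and 3 and day 8 replicates 1 and 3 (adjusted p from 0.0657 to 0.225). The day 8 call was also lost under all 3 other scalings (adjusted p from 0.277 to 0.493), and at day 16 Psmd7 passed with the block (0.0289). Psmd13 and Psmd8, also of the lid, were at 54.1% and 59.6% of control at day 16, whereas Psmd6 was at 89.1% and did not pass (-0.17, adjusted p = 0.215), although it did with equal sums (0.00281).

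Assembly chaperones build the particle and leave it. Psmd5, Psmd9 and Psmd10 serve the base of the 19S cap, and the Psmg genes serve the alpha ring. At day 2, 4 of 6 were lower, at day 8 5, and at day 16 4. Psmd5 had the largest drop of any member at day 2, from 71.4, 58.5 and 64.4 FPKM in control to 28.4, 27.8 and 25.0, and read 31.9, 27.6 and 32.1 at day 16. The groups were far apart, with a change of -1.23 ± 0.12 (SE, adjusted p = 1.26e-09). Psmd9 (-0.67, adjusted p = 1.81e-05), Psmg1 (-0.52, adjusted p = 0.0133) and Psmg2 (-0.76, adjusted p = 1.08e-04) also fell by day 2. Psmg1 did not pass at day 2 under any of the 3 other scalings (adjusted p from 0.0510 to 0.0785) or without day 2 replicate 3 (0.0752). Psmd10, known as gankyrin, read 14.2, 24.9 and 31.5 FPKM in control, 22.3, 36.8 and 38.3 at day 2 and 21.8, 47.7 and 41.8 at day 16. Each of these starved libraries was above the control of its own number, while the groups overlapped. It did not pass without the block at day 2 (0.48, adjusted p = 0.194) or day 16 (0.63, adjusted p = 0.0786), and with the replicate number as a block it was higher at both (0.00804 and 6.93e-04). At day 16 it also passed with upper quartiles equalised (0.0258) and with quantile normalization (0.0290). It was 1 of 4 members, with Psmc1, Psmd1 and Psmd6, whose replicate 1 library was the lowest in all 10 groups.

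Of the 6 chaperones, Psmg4 was the one that passed both between days 2 and 8 and between days 8 and 16. Its libraries read 77.0, 58.8 and 84.9 FPKM in control, 72.1, 62.2 and 86.2 at day 2, 53.2, 50.02 and 39.8 at day 8, 89.6, 80.1 and 74.0 at day 12 and 70.2, 84.9 and 78.1 at day 16. Day 8 lay below the control libraries and below those of days 2 and 16, which overlapped with control. The change was -0.61 ± 0.16 (SE, adjusted p = 0.00327) from day 2 to day 8 and 0.70 ± 0.16 (SE, adjusted p = 0.00137) from day 8 to day 16. Neither passed without the replicate 3 libraries of all groups (adjusted p = 0.197 and 0.0618).

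The activators divided. Psme1 and Psme2 encode the PA28 alpha and beta subunits, an interferon-responsive cap of the core, Psme3 the nuclear PA28 gamma, and Psme4 the PA200 cap. Psme1 read 103, 95.8 and 95.9 FPKM in control, 133, 119 and 119 at day 2, 75.1, 73.9 and 75.5 at day 8 and 119, 133 and 128 at day 16. Control lay between the other groups without overlap: above day 8 and below days 2 and 16. It rose by 0.33 ± 0.10 (SE, adjusted p = 0.00735) at day 2, fell by 0.72 from day 2 to day 8 (adjusted p = 3.15e-06) and rose by 0.75 ± 0.10 (SE, adjusted p = 3.29e-06) from day 8 to day 16. The gains against control at days 2 and 16 did not pass when all replicate 2 libraries were left out (adjusted p = 0.0608 and 0.0734).

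Psme2 had the same shape at a lower level, with 28.5, 25.0 and 21.7 FPKM in control, 38.0, 24.4 and 27.7 at day 2, 24.2, 23.6 and 19.8 at day 8 and 33.1, 27.8 and 32.2 at day 16. Control overlapped with each of the 3 days, and none of the differences from control passed. The drop from day 2 to day 8 was -0.38 (adjusted p = 0.0369) and the gain from day 8 to day 16 0.45 (adjusted p = 0.0186). The drop did not pass without day 2 replicate 1 (adjusted p = 0.290), day 8 replicate 2 (0.0511) or day 8 replicate 3 (0.167), and the gain did not without day 8 replicate 3 (0.103), day 16 replicate 1 (0.0707) or day 16 replicate 3 (0.0574). With libraries scaled to equal sums neither passed (adjusted p = 0.226 for each). Against control at day 16, Psme2 passed with the replicate number as a block (adjusted p = 0.0266), with upper quartiles equalised (0.0243) and with quantile normalization (0.0254).

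Psme3 behaved like the core, from 68.1, 67.8 and 69.8 FPKM in control to 43.3, 44.2 and 39.8 at day 2 and 46.7, 48.8 and 53.1 at day 16, a change of -0.68 ± 0.07 (SE, adjusted p = 6.32e-09) at day 2. Psme4 declined over the starved days. It read 19.1, 22.7 and 22.9 FPKM in control, 22.3, 25.9 and 28.3 at day 2, 18.4, 17.3 and 20.1 at day 8 and 13.9, 14.3 and 15.0 at day 16. The day 16 libraries were below all controls (-0.55 ± 0.10 SE, adjusted p = 2.94e-05), and over the 27 starved libraries the fitted line of log2 level on day gave -0.86 ± 0.08 (SE, adjusted p = 1.55e-09) over 14 days. Its slight excess at day 2, 0.23 (adjusted p = 0.0489), came with overlapping groups and did not pass without control replicate 1 (adjusted p = 0.247), day 2 replicate 2 (0.111) or day 2 replicate 3 (0.232). Psmf1, the inhibitor PI31, read 35.9, 39.3 and 34.5 FPKM in control and 41.6, 41.3 and 43.1 at day 2, a change of 0.19 (adjusted p = 0.04995). That call did not pass without control replicate 1 (adjusted p = 0.110) or 3 (0.171), or without any 1 of the day 2 libraries (0.0730 to 0.125). Psmf1 did not pass in the main fit at day 8 (0.13) or day 16 (0.14). It was higher at day 8 under all 3 other scalings (adjusted p from 0.0130 to 0.0436). At day 16 it was higher with upper quartiles equalised (0.00570) and with quantile normalization (0.00521).

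**Figure D4:**
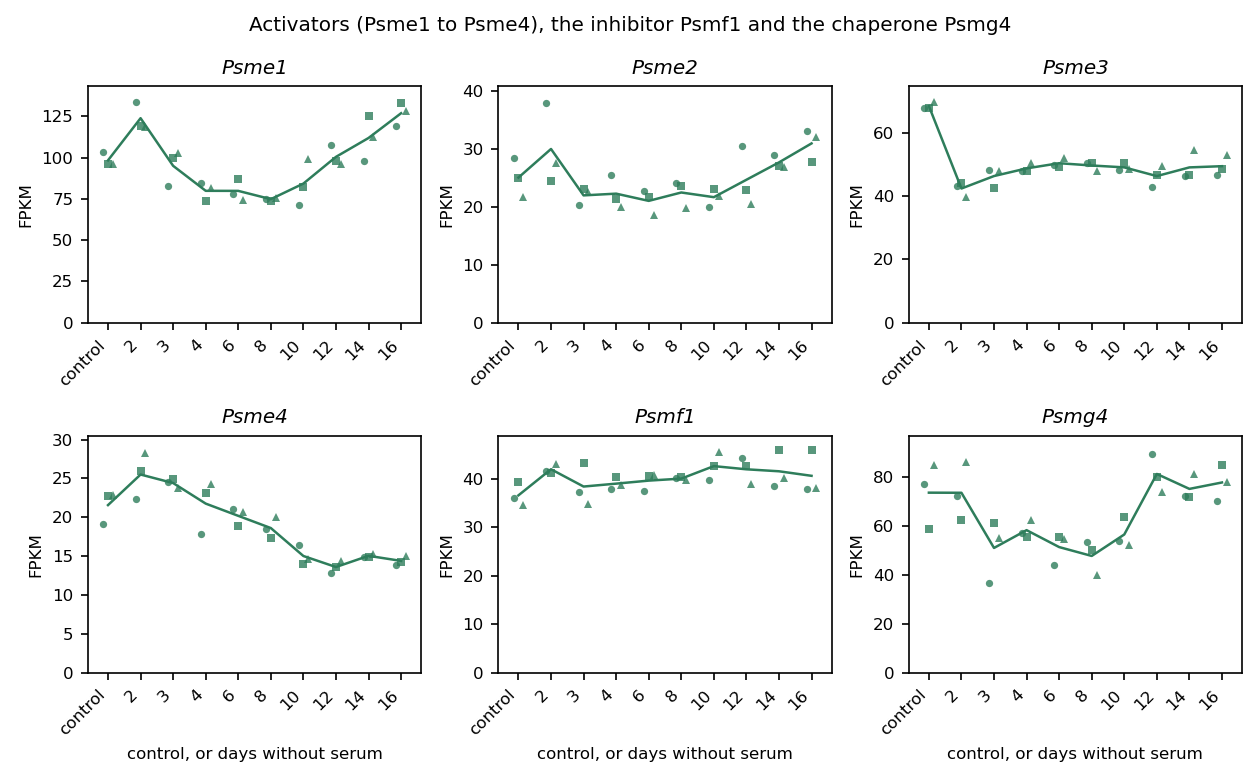
FPKM of Psme1, Psme2, Psme3, Psme4, Psmf1 and Psmg4 in each library (points, by replicate as circle, square and triangle) with group means (lines), 1 panel a gene, axes from 0. Psme1 dips to 74.8 FPKM at day 8, after 124 at day 2, and returns to 127 at day 16, Psme4 declines to 14.4 FPKM at day 16, against 25.5 at day 2, and Psme3 drops once.

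The inducible catalytic subunits were scarce. Psmb8, the counterpart of Psmb5, was listed at 0 in 20 of 30 libraries and never exceeded 0.581 FPKM. The thymus subunit Psmb11 and the testis subunit Psma8 were listed at 0 in 24 and 25 libraries. Psmb9, the counterpart of Psmb6, read 2.47, 1.17 and 1.03 FPKM in control, 2.64, 2.76 and 4.34 at day 2, 1.58, 3.19 and 1.68 at day 8, 6.07, 6.30 and 4.44 at day 12 and 5.87, 4.63 and 8.49 at day 16. Day 16 lay above control and day 8, and day 2 above control, while day 8 overlapped with control. The change was 0.75 ± 0.24 (SE, adjusted p = 0.00890) at day 2, 1.22 ± 0.24 (SE, adjusted p = 3.47e-04) from day 8 to day 16 and 1.53 ± 0.24 (SE, adjusted p = 3.93e-06) at day 16. The day 2 call did not pass without control replicate 3 (adjusted p = 0.0552) or day 2 replicate 3 (0.0650). Psmb10, the counterpart of Psmb7, moved the other way, from 16.1, 16.7 and 16.3 FPKM in control to 17.4, 16.5 and 8.61 at day 2, 10.5, 9.85 and 9.56 at day 8 and 6.48, 5.86 and 7.37 at day 16. Days 8 and 16 lay under all controls, with changes of -0.67 ± 0.21 (SE, adjusted p = 0.00675) and -1.20 ± 0.21 (SE, adjusted p = 1.51e-05).

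Each inducible subunit was also set against the constitutive subunit it replaces in the same library. Psmb9 amounted to 0.356% to 0.807% of Psmb6 in control cells, 1.71% to 3.57% at day 2, 1.47% to 2.17% at day 8 and 3.23% to 5.72% at day 16. All starved libraries of these days lay above the controls. On the log2(FPKM + 1) scale the ratio differed from control by 1.86 ± 0.35 (SE) at day 2, 1.60 ± 0.24 at day 8 and 2.69 ± 0.32 at day 16, each with an exact permutation p of 0.1 (two-sided, adjusted 0.125), the smallest possible here. Both parts of that ratio moved, Psmb6 down at each of these days and Psmb9 up at days 2 and 16. Psmb10 amounted to 3.94% to 4.91% of Psmb7 in control cells, 3.60% to 8.11% at day 2, 4.88% to 5.57% at day 8 and 2.15% to 2.93% at day 16. Day 16 lay below control by -0.64 ± 0.16 on the log2 scale (exact permutation p = 0.1), without overlap. The 2 ratios therefore ended on opposite sides of their control values.

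**Figure D5:**
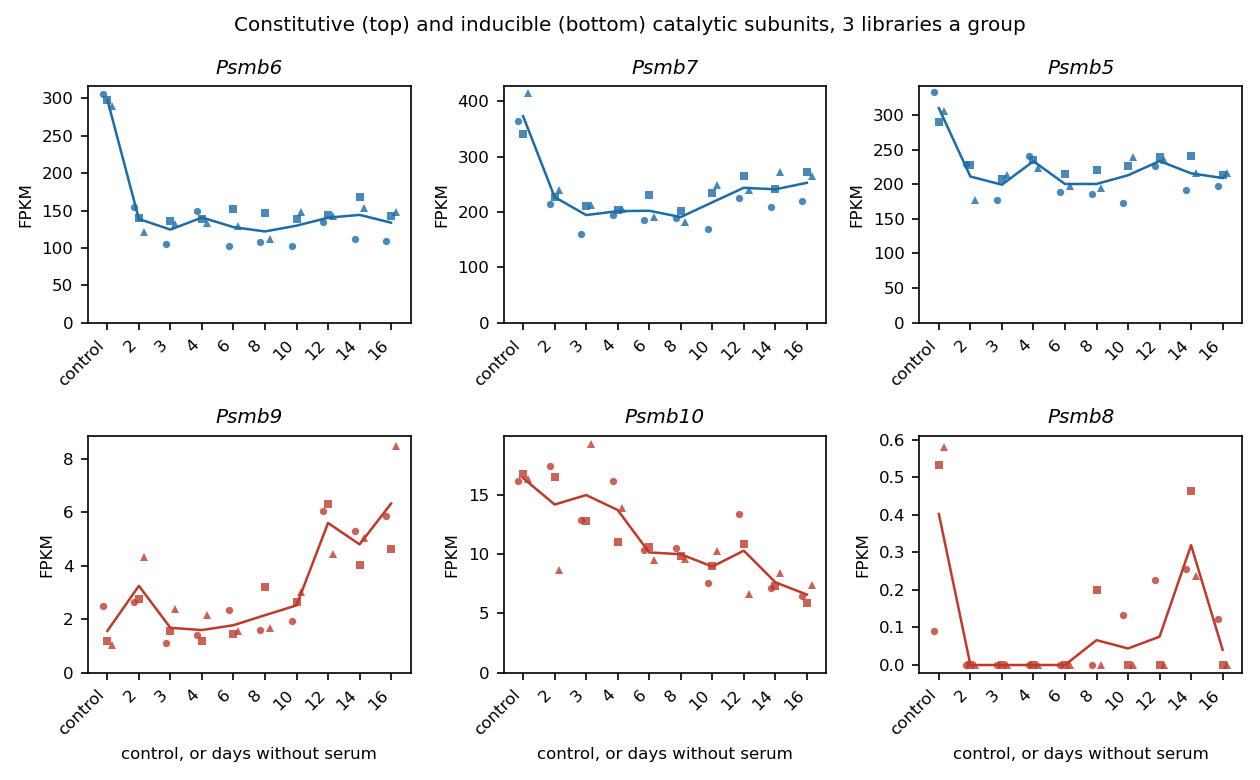
FPKM of the constitutive catalytic subunits (top row) and of the inducible subunit that replaces each (bottom row) in every library (points, by replicate as circle, square and triangle) with group means (lines). The scales differ: Psmb6, Psmb7 and Psmb5 lie between 102 and 415 FPKM, Psmb9 and Psmb10 between 1.03 and 19.3, and Psmb8 at or near 0.

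Interferon-stimulated response elements were searched for in the same promoters by their core, GAAANNGAAA, on both strands. It occurred in 7 of 42 members (16.7%), namely Psma4, Psmb3, Psmb8, Psmb10, Psmd7, Psme2 and Psmg4, in 3.92% of all 33469 promoters and in 2.62% of those of tested genes. The gamma-activated site TTCNNNGAA was in 9.52% of members' promoters, 8.87% of all and 6.35% of those of tested genes. The 250 bases before the start are shown for Psmb10 (chr19:50743293-50743542, minus strand), which holds 2 copies and fell, and for Psme2 (chr15:33052752-33053001, minus strand), which dipped at day 8, with the core in capitals.
Psmb10: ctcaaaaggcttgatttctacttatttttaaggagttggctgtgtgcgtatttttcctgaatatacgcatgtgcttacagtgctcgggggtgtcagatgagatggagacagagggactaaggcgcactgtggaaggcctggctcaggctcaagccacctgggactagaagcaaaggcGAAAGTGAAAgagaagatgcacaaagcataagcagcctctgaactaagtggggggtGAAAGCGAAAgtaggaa
Psme2: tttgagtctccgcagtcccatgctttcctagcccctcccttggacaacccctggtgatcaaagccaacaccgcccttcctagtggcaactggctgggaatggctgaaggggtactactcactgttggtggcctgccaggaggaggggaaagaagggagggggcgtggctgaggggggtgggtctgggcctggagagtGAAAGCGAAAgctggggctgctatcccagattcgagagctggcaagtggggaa

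A list of 8 genes of antigen presentation and interferon signalling was tested beside them. At day 2, 6 of 8 were higher and 0 lower, at day 8 6 and 0, and at day 16 7 and 0, while 30%, 33.4% and 32.4% of all genes were higher. B2m, the light chain of MHC class I, rose from 145, 127 and 139 FPKM in control to 311, 305 and 315 at day 16 (1.17 ± 0.08 SE, adjusted p = 9.72e-13), with no overlap. Irf1, a transcription factor that induces immunoproteasome genes, read 8.32, 10.9 and 8.81 FPKM in control, 21.9, 19.6 and 21.6 at day 2 and 7.88, 10.1 and 10.6 at day 8. It rose at day 2 (1.10 ± 0.14 SE, adjusted p = 2.78e-07) and fell again by day 8 (-1.08 ± 0.14 SE, adjusted p = 1.02e-06). Irf1 was higher again at day 16 than at day 8. That gain did not pass without day 8 replicate 1 (adjusted p = 0.122), day 16 replicate 1 (0.0608) or day 16 replicate 2 (0.0530), nor with equal sums (0.139). A line fitted to days 8 to 16 alone, added afterwards, rose by 0.90 over 14 days (adjusted p = 0.00173). Tapbp, a loader of peptides onto class I, rose by 1.13 ± 0.10 (SE, adjusted p = 1.30e-10) at day 16. Tap1, the peptide transporter subunit that neighbours Psmb9 and Psmb8 in the rat MHC region, did not pass against control at day 16 (0.22, adjusted p = 0.0883), although it did with upper quartiles equalised (0.0135) and with quantile normalization (0.0449), and Tap2 was listed at 0 in 26 libraries.

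Genes that work with the proteasome changed in both directions. Of 28 tested, such as receptors, deubiquitinases, ubiquitin and its activating enzymes, 13 were lower and 7 higher at day 2, 14 and 6 at day 8, and 12 and 7 at day 16. The share lower was 46.4% at day 2 and 42.9% at day 16, against 30.7% and 35% of all genes, and the share higher was 25% on both days, against 30% and 32.4%. Both deubiquitinases that dock on the 19S cap were lower at days 2 and 8. Uchl5 went from 16.8, 16.9 and 18.6 FPKM in control to 7.97, 6.80 and 7.08 at day 2 (-1.16 ± 0.11 SE, adjusted p = 5.76e-10), and Usp14 from 61.9 ± 4.94 to 42.5 ± 3.34 FPKM (SD, n = 3 each; -0.53, adjusted p = 5.92e-07). Adrm1, the ubiquitin receptor to which Uchl5 binds, fell with them (-0.44, adjusted p = 0.00154), as did Shfm1, a small lid subunit outside the name rule (-0.60, adjusted p = 1.44e-04), and Ubqln4, a shuttle factor (-0.85, adjusted p = 3.85e-12). Others rose: Zfand5, an activator of the 26S particle, read 37.7, 40.3 and 40.7 FPKM in control, 63.3, 68.7 and 66.4 at day 2 and 64.3, 72.5 and 68.1 at day 16 (0.73 ± 0.07 SE, adjusted p = 4.82e-10 at day 2). Ubb, a polyubiquitin gene, did not pass at day 2 (-0.42, adjusted p = 0.108), but was lower with the replicate number as a block (adjusted p = 0.0209). The ubiquitin-activating enzyme Uba1 (-0.34, adjusted p = 0.00472) and the segregase Vcp (-0.16, adjusted p = 0.00960) were lower at day 2. Vcp did not pass without control replicate 3 (adjusted p = 0.0521), under any of the 3 other scalings (0.0740 to 0.363, with -0.06 when upper quartiles were equalised) or with both groups fitted alone (0.0640). Pomp, a maturation factor of the core, was listed at 0 in 19 libraries. Trim63, a ubiquitin ligase known from muscle atrophy, rose at day 2 (0.77, adjusted p = 1.24e-04) and reached 4.49 ± 0.282 FPKM at day 16 (SD, n = 3) from 0.218 ± 0.115 in control.

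Within starvation the changes were smaller and less secure. Between days 2 and 8, 7 members fell and 2 rose (all genes, 18.4% lower and 17.4% higher), and the median member changed by -0.07 against 0.01 for all genes. Those lower were Psma6, Psmc3, Psmd14, Psme1, Psme2, Psme4 and Psmg4, and those higher Psmd12 and Psme3. Between days 8 and 16, 1 fell and 6 rose (all genes, 14.4% lower and 15.8% higher), with a median of 0.17 against 0.00. The 6 were Psma6, Psmb7, Psmb9, Psme1, Psme2 and Psmg4, and the 1 was Psme4. Most of these calls thus belonged to activators, inducible subunits and Psmg4, and 2 of the 6 to the 30 structural subunits. The call of Psma6 did not pass without day 8 replicate 3 (limma, adjusted p = 0.0531) or day 16 replicate 2 (0.0724), nor with equal sums (0.391). That of Psme4 did not pass without day 8 replicate 3 (0.0571). The number that rose depended on the libraries: it was 15 without the replicate 1 libraries, 3 without those of replicate 2, 2 without those of replicate 3 and 3 without day 8 replicate 3. Scaled to equal sums, all genes shifted by -0.16 in this comparison and split into 2458 lower and 731 higher instead of 1291 and 1412. The members then had 5 lower and 4 higher and a median of -0.00307, which still exceeded the median of all genes by 0.16, as it did by 0.17 in the values as deposited.

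Over all 27 starved libraries, a straight line of log2 level on day gave 16 members rising and 3 falling (all genes, 26.6% rising and 28.9% falling), with a median of 0.15 over 14 days. Of the 30 structural subunits, 13 rose and Psmc3 fell. The steepest rise among these was that of Psmb3 (0.59 ± 0.10 SE, adjusted p = 8.45e-06), followed by Psma2 (0.42 ± 0.08 SE, adjusted p = 4.06e-05) and Psmd12 (0.39 ± 0.08 SE, adjusted p = 2.45e-04). Psmb9 rose by 1.31 ± 0.23 (SE, adjusted p = 2.56e-05) and Psmb10 fell by 0.95 (adjusted p = 3.96e-06) over the same span. Fitted to days 2 to 8 alone, 3 of 44 members rose and 6 fell (all 8940 genes, 1389 rising and 1449 falling). The median member changed by -0.11, against 0.03 for all genes. Fitted to days 8 to 16 alone, 8 members rose (all 8940 genes, 1508 rising), with a median of 0.29 against -0.01. These medians are expressed over 14 days. The sign of the members' median thus differed between the early and the late days, a split chosen after the data were seen. Without the replicate 2 libraries 7 members rose, without replicate 3 10, and with equal sums 9. None of the 30 structural subunits reached its control mean at any time, the closest being Psmb3 at 98.2% at day 14.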

How the data were processed

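RNA sequencing of 30 libraries, 3 for each of 10 groups assigned from the sample titles, was deposited as 1 table of FPKM per gene symbol. Per the submitters' processing notes, the authors used TopHat2 2.1.1, Cufflinks and Cuffnorm 2.2.1 with the rn6 build. The annotation, the scaling between libraries and the handling of reads that match several genes are not given in the sources used here. Values were not whole multiples of a step, so no counts could be recovered, and depth and counting error are unknown.

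Genes with a mean of at least 1 FPKM over all libraries were kept (8940 of 17353) and analysed as log2(FPKM + 1). Linear models of all 10 group means, and of day over the 27 starved libraries, were fitted in limma 3.58.1 (R 4.3.3) with variances moderated along their trend with level. Each test was two-sided, with Benjamini-Hochberg adjustment over all genes kept and a threshold of 0.05. Fold changes on this scale understate those of low genes. Slopes are given over 14 days. Ratios were tested by exact permutation over libraries. The code was tested on simulated data with 200 changed genes. P-values measure the spread between replicates of 1 cell line.

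Members, roles, gene lists, tests and motifs were chosen with earlier results of these data known. Genes named were the catalytic, inducible, activator and inhibitor genes, in each role class those with the largest and smallest change at day 2 and the largest between days 8 and 16, members that passed against their class's direction, members under the filter, and set members of the lists. Other named genes were chosen after their values were seen.

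Same-numbered replicates deviated together between day 2 and control (correlations of 0.59, 0.21 and 0.19 over genes) and between day 16 and control (0.44, 0.13 and 0.36). They were counted as paired in these comparisons, but the main fits, which gave the counts, SEs and adjusted p-values, held no replicate term. The pairing entered only through the alternative with the replicate number as a block, and values from it are named as such. In each of the other comparisons at least 1 replicate number had a correlation of 0.08 or less, and the rest ranged up to 0.24. Alternatives were other pseudocounts, filters, scalings, replicate blocks, fits of 2 groups, and each replicate left out. Promoters and gene synonyms came from RefSeq (GRCr8). All 47 members matched by symbol and 42 had a promoter. Some members of the gene lists are counted but not reported by name here.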

Additional observations from a re-analysis of the deposited data

How the results depend on the processing

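The fall of the members against control kept its direction under every alternative run. Over all alternatives, 8283 outcomes of single members and other named genes stayed on their side of the threshold, which includes genes that passed in neither fit. A further 305 no longer passed, 169 newly passed and 15 reversed. With the replicate number as a block, members higher changed from 0 to 1 at day 8 and from 2 to 4 at day 16 against control. For comparisons not counted as paired, the block moved those higher from 2 to 4 between days 2 and 8, and between days 8 and 16 to 13 higher and 2 lower.

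Scaling mattered for medians and small counts. With the upper quartile equalised, the median member was -0.47, -0.49 and -0.30 at days 2, 8 and 16 against control, with 1 higher at day 8 and 6 at day 16. It gave 4 higher between days 2 and 8 and 12 between days 8 and 16. Quantile normalization gave medians of -0.46, -0.46 and -0.30, 1 and 6 higher at days 8 and 16, and 6 higher between days 2 and 8. Equal sums gave 2 higher at day 2, and 2 higher with a median of -0.50 at day 8. Between days 2 and 8 they gave 4 lower, 8 higher and a median of 0.0329, where all genes shifted by 0.11. Between days 8 and 16 they gave 5 lower and a median of -0.00307, and for the slope 9 higher and a median of 0.0188, where all genes shifted by -0.14.

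Without a filter, 2 members were higher at day 2. A minimum of 5 FPKM gave 1 higher at day 16 against control and 2 lower between days 8 and 16, as did a pseudocount of 0.1. Fitting only the compared groups gave 2 higher at day 2, 1 higher between days 2 and 8, and 2 lower between days 8 and 16. Fitted to time-point means, the slope had 7 members rising.

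Chosen after seeing the data, the slope over days 2 to 8 gave 6 falling, 3 rising and a median of -0.11 (all 8940 genes, 1449 falling and 1389 rising). Over days 8 to 16 it gave 8 rising and a median of 0.29 (all 8940 genes, 1508 rising). Early slopes changed sign for Psmb7 (-0.37), Psmb9 (-0.52), Psme1 (-1.41), Psma1 (-0.16), Psma4 (-0.0156), Psmb4 (-0.18), Psma6 (-0.45), Psmg4 (-1.05) and Irf1 (-1.76). Late slopes changed sign for Shfm1 (-0.000278), Uba1 (0.10) and Zfand5 (0.65). Of these slopes, those of Psme1 (limma, adjusted p = 0.00115), Psma6 (0.0424), Irf1 (0.0493) and Zfand5 (0.00437) passed. The others did not pass (adjusted p from 0.0561 to 0.999), so their change of sign is not secure. Also added afterwards, Psma3 summed with Psma3l reversed to -0.89 at day 8, -1.05 at day 16 and -0.18 for the slope.

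The Psmb9 to Psmb6 ratio against control was 1.41 at day 2 with a pseudocount of 5. At day 16 it was 3.18 with 0.1 and 1.92 with 5, and from day 8 to day 16 it was 1.41 and 0.53. With a pseudocount of 5, Psmb10 to Psmb7 was 0.43 at day 8, -0.33 at day 16 and -0.77 from day 8 to day 16, and Psmc3 to the other ATPases -1.38 at day 16. A Psmb8 to Psmb5 ratio was not run, since Psmb8 was mostly listed at 0.

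Leaving out libraries gave, against control, 29 to 35 members lower and 1 to 4 higher at day 2 (median -0.64 to -0.53). At day 8 it gave 29 to 38 lower and 0 to 1 higher (-0.63 to -0.51), and at day 16 26 to 34 lower and 1 to 4 higher (-0.49 to -0.36). Day 8 against day 2 had 4 to 8 lower and 1 to 2 higher (-0.08 to -0.04), with 1 higher without day 2 replicate 3. Day 16 against day 8 had 0 to 1 lower and 2 to 15 higher (0.10 to 0.22), with none lower without day 8 replicate 3. The slope had 3 falling and 7 to 18 rising (0.12 to 0.20), 10 of them without the replicate 3 libraries. Against control, the ratio of Psmb9 to Psmb6 ranged from 1.59 to 2.08 at day 2, 1.47 to 1.82 at day 8 and 2.56 to 2.92 at day 16, and from day 8 to day 16 from 0.97 to 1.32. From day 2 to day 8 it ranged from -0.44 to 0.0106, positive without day 2 replicate 3. That of Psmb10 to Psmb7 ranged from 0.25 to 0.79, 0.21 to 0.37 and -0.73 to -0.52, from -1.03 to -0.81 between days 8 and 16, and from -0.50 to 0.0486 between days 2 and 8, positive without day 2 replicate 1. Psmc3 to other ATPases ranged from -0.45 to -0.42, -1.19 to -1.12 and -1.42 to -1.40, from -0.75 to -0.68 between days 2 and 8, and from -0.29 to -0.22 between days 8 and 16. The cause of these changes was not tested. Without counts, no limit set by depth can be given.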
